A study of Mus musculus with 35 samples.

Results

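Hemoglobin and erythroid genes were followed in bulk RNA sequencing of whole mouse lungs. The genes were chosen by symbol and not by a cut on measured values, though earlier results of these data were known. They are the α chain genes Hba-a1 and Hba-a2, the β chain genes Hbb-bs and Hbb-bt, and Alas2, Slc4a1, Epb42 and Ahsp. Of these 8 genes, 7 have a row among the 54532 genes of the count and FPKM tables, and Ahsp was not analysed here. The 34 labelled libraries come from adult mice, at least 3 months old, of 3 genotypes. Control mice were wild-type B6/129SJ2. Cav1-KO mice carried the global Caveolin-1 knockout Cav1tm1Mls/J. Cav1-RC mice are labelled as the knockout with Cav1 put back in endothelial cells, and the promoter driving the endothelial copy is not given in the sources used here. Males and females of each genotype breathed room air (normoxia) or 10% oxygen (hypoxia) for 6 weeks. This gave 12 groups of 3 libraries, apart from the normoxic females of Cav1-KO and of Cav1-RC, with 2 libraries in each group.

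Hemoglobin is the oxygen carrier of red cells and is built from α and β chains, each holding a heme. Alas2 encodes the erythroid enzyme that starts heme synthesis, Slc4a1 the anion exchanger band 3 of the red cell membrane, and Epb42 protein 4.2, which ties band 3 to the membrane skeleton. Ahsp encodes a chaperone of free α chains. Mature red cells have no nucleus but young ones, the reticulocytes, still carry globin mRNA, so a lung that holds blood yields these transcripts, and α chain is also known from the endothelium of small arteries, where it limits nitric oxide diffusion. Whether the lungs were perfused is not given in the sources used here. In bulk RNA, fewer red cells and less RNA per red cell cannot be told apart. In blood, the study reports a significantly higher hematocrit in hypoxic mice of both sexes. How this relates to the lung transcripts was not tested.

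The chain genes come in near-identical copies, which decides how their counts can be read. In the GENCODE annotation, the coding sequences of Hba-a1 and Hba-a2 (429 bases each) differ at 1 base, and so do those of Hbb-bs and Hbb-bt (444 bases each). The stretches around these bases are shown because reads that lie inside the shared runs of 380 and 416 bases cannot be assigned to a copy. Coding bases 351 to 410 are given for the α pair and 385 to 444 for the β pair, with the differing base in capitals, and positions are counted from 1 at the A of the start codon. The substitution is C381T from Hba-a1 to Hba-a2 and C417T from Hbb-bs to Hbb-bt.
Hba-a1: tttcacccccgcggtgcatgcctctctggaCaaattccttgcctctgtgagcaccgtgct
Hba-a2: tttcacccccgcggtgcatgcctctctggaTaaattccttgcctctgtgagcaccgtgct
Hbb-bs: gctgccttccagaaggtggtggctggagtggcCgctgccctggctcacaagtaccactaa
Hbb-bt: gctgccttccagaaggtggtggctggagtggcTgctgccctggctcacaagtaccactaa

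Promoters are shown for the globins and Alas2, whose counts moved together in these libraries, and for Epb42, the remaining member with a RefSeq promoter. Each is the 250 bases before the RefSeq start site in build GRCm38.p6, and capitals mark GATAA, the core letters bound by GATA factors, and CACCC, the letters bound by factors such as Klf1, on either strand. Hba-a1 lies at chr11:32283422-32283671 on the plus strand, Hbb-bs at chr7:103827929-103828178 and Hbb-bt at chr7:103813924-103814173 on the minus strand, Alas2 at chrX:150547167-150547416 on the plus strand and Epb42 at chr2:121036878-121037127 on the minus strand. The Hba-a2 promoter at chr11:32296242-32296491 shares a run of 247 bases with that of Hba-a1 and is not repeated.
Hba-a1 promoter: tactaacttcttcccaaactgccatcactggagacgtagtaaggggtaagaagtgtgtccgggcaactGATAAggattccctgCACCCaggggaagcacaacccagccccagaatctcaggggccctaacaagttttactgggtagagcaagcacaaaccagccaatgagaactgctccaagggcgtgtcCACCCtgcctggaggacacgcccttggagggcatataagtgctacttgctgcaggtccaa
Hbb-bs promoter: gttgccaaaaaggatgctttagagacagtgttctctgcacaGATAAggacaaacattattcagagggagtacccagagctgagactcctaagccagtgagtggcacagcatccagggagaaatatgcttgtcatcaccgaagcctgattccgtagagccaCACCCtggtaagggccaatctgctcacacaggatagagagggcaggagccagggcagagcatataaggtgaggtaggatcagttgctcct
Hbb-bt promoter: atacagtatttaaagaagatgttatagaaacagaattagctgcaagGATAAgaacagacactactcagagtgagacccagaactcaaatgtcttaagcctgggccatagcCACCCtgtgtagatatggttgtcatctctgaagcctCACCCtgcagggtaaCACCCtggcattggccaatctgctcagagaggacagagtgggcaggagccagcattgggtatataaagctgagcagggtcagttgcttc
Alas2 promoter: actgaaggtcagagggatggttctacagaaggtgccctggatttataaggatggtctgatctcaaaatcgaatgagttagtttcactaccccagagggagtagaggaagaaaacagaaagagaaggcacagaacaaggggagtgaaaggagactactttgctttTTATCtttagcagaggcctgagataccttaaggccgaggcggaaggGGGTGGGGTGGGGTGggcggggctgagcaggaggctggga
Epb42 promoter: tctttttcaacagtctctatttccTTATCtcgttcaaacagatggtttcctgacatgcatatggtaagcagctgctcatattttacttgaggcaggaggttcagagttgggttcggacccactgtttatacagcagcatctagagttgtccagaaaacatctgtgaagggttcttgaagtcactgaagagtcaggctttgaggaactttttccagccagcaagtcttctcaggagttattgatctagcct
GATAA occurred 1 time in each of the 6 promoters and in 22.6% of the 32851 promoters of that length. CACCC occurred 2 times in each α promoter, 1 time in Hbb-bs, 3 times in Hbb-bt and Alas2 and 0 times in Epb42, against 52.0% of promoters with it. Both motifs stood in 10.1% of all promoters and in every member promoter shown except Epb42. The β promoters shared no run longer than 14 bases. A match describes letters and not a bound site. Slc4a1 was not among the promoters used here.

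The libraries held 12425535 to 33343006 counts, with a median of 18015172.5. Cav1 had 284 to 394 FPKM in the 12 Control libraries and at most 1.13 and 1.89 in the Cav1-KO and Cav1-RC libraries, respectively. Cav1 RNA did not separate the libraries labelled Cav1-RC, called so throughout, from Cav1-KO over both sexes, with a log2 fold change of 0.44 ± 0.31 in hypoxia (adjusted p = 0.252) and -0.11 ± 0.27 in normoxia (adjusted p = 0.841). The lung identity list of 8 genes, among them the surfactant gene Sftpc, was above 0 in every library and summed to 34133 to 93974 CPM. In 4 libraries, called discordant here, sex genes did not match the label in full. Male Control hypoxia replicate 2 and male Cav1-RC normoxia replicates 1 and 2 are labelled male but had Xist at 751 to 879 CPM, and Y chromosome genes at 0.475% of the male median in the first of them and at 0 in the others. Both kinds of gene thus go against the male label, and "male" names the label of these libraries throughout. Female Cav1-KO hypoxia replicate 2 had Xist at 709 CPM, as a female would, but also Y chromosome genes at 7.33% of the male median. Of the 34 mice, 12 are on the animal list of the study's western blots (the blot list), and their libraries stand apart from the other 22. The list holds all 3 libraries of male Control hypoxia, female Cav1-KO hypoxia and male Cav1-KO hypoxia, and replicate 1 in each of 3 further female groups, normoxic Control, hypoxic Control and normoxic Cav1-RC. Where a comparison sets listed against unlisted libraries, condition and list cannot be told apart. This holds for every comparison of hypoxic Cav1-KO with its own normoxic libraries or with hypoxic Cav1-RC.

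Among the members the globins were by far the most abundant per length and Epb42 the scarcest. Over the 34 libraries the median FPKM was 1265 for Hbb-bs (ENSMUSG00000052305, chr7:103826534-103828096), 732 for Hba-a1 (ENSMUSG00000069919, chr11:32283511-32284465), 262 for Hba-a2 (ENSMUSG00000069917, chr11:32296489-32297298) and 258 for Hbb-bt (ENSMUSG00000073940, chr7:103812524-103813996), all in build mm10. It was 14.4 for Alas2 (ENSMUSG00000025270, chrX:150547375-150570638), 0.225 for Slc4a1 (ENSMUSG00000006574, chr11:102348824-102366203) and 0.0472 for Epb42 (ENSMUSG00000023216, chr2:121017891-121037072). All 7 are annotated as protein coding. Epb42 had 0 to 87 counts per library and was at 0 in 2 libraries, where a count of 0 allows up to 3 counts. From the lowest to the highest library the FPKM spanned 189-fold in Hbb-bs, 241-fold in Hba-a1, 386-fold in Hba-a2 and 347-fold in Hbb-bt. Alas2 ran from 0.409 to 136 FPKM. For Slc4a1 it spanned 1398-fold, but its lowest library held only 1 count. The 4 globin genes together took 0.00856% to 2.01% of all counts of a library (median 0.197%).

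Much of this spread lay between replicates of the same group. The within-group SD on the log2 CPM scale was 1.21 to 1.48 for the globins, Alas2 and Slc4a1, higher than in 98.9% to 99.5% of 19870 genes, whose median SD was 0.326. For Epb42 it was 0.767, above 91.8% of genes. When the 12 groups were put in order of mean FPKM, 1 to 3 of the 11 neighbouring pairs per gene differed by more than the larger of their SDs. For Hbb-bs the order ran from 224.4 ± 184 in male Control hypoxia to 7454 ± 5522 in male Cav1-KO hypoxia (mean ± SD, n = 3 each). The same 2 groups stood at the ends for Hba-a1, Hba-a2 and Hbb-bt. For Alas2 male Control hypoxia was also lowest, and female Cav1-RC hypoxia was highest with 58.1 ± 68.8 (n = 3). Female Control normoxia had Hbb-bs at 59.2, 1712 and 1529 FPKM in its 3 libraries, so that the replicate on the blot list was far below the other two.

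**Figure D1:**
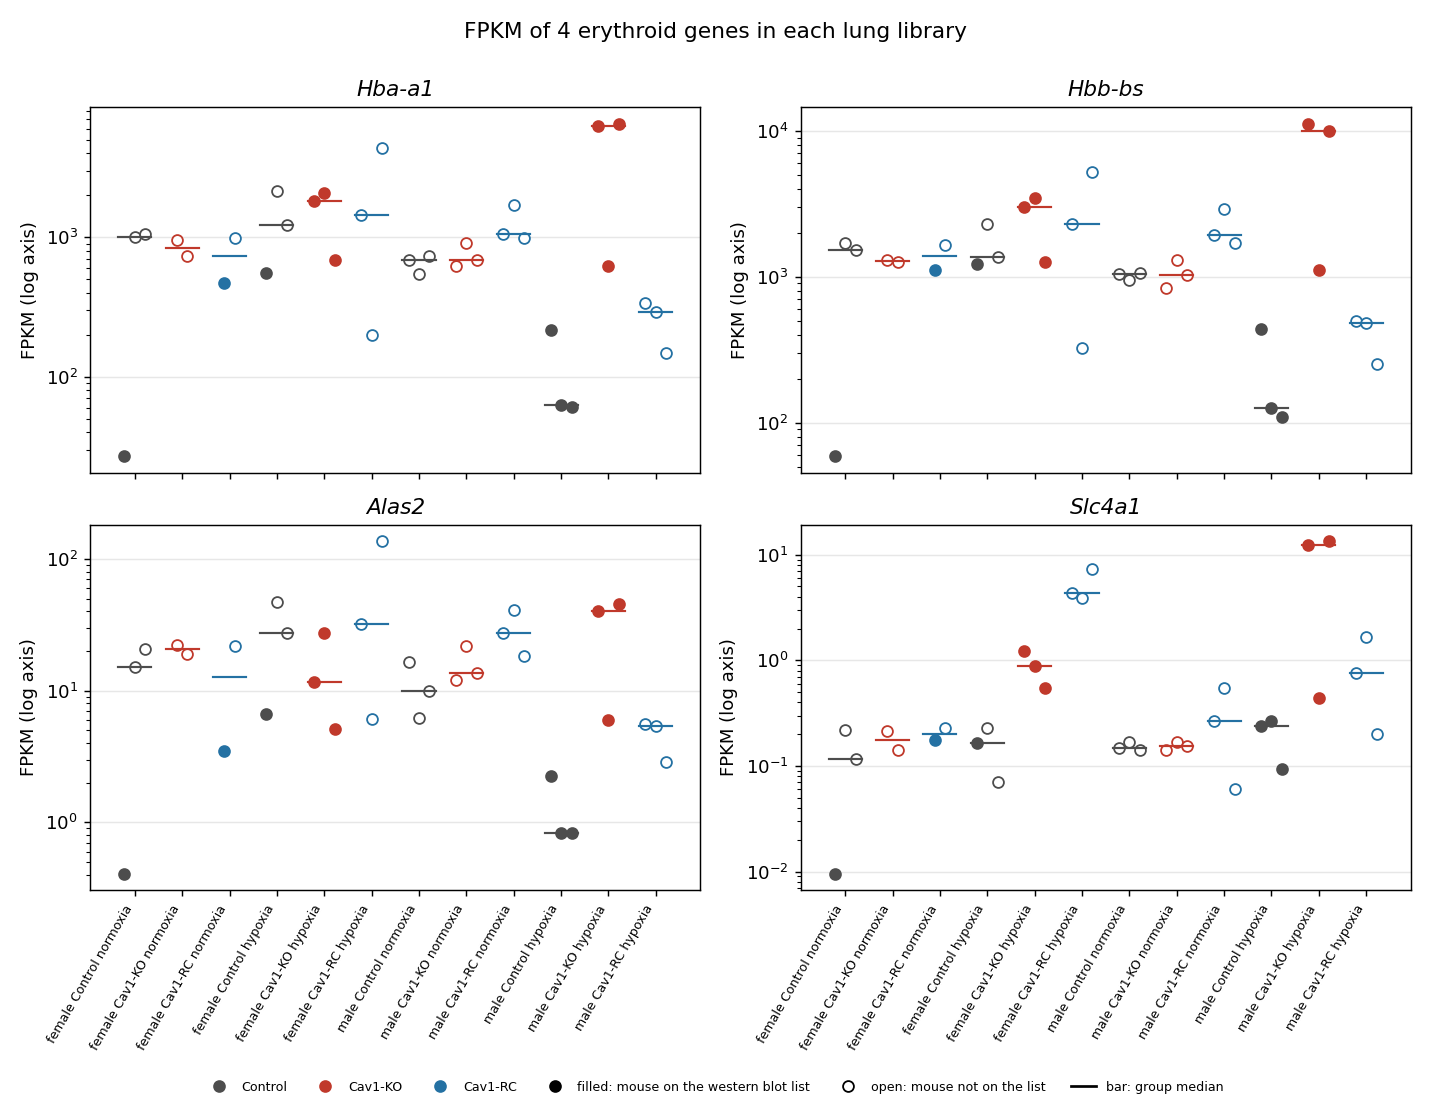
FPKM (log axis) of Hba-a1, Hbb-bs, Alas2 and Slc4a1 in each of the 34 labelled libraries by group, with bars at group medians and filled points for mice on the blot list. Hbb-bs in the hypoxic Control males lay between 109 and 437 FPKM, and 2 of the 3 hypoxic Cav1-KO males exceeded every other labelled library for that gene.

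Among the 18 comparisons within a sex, the globins and Alas2 differed most between hypoxic Cav1-KO and Control males, a comparison in which all 6 libraries are on the blot list. For Hba-a1, the FPKM was 6274, 619.7 and 6516 in Cav1-KO and 215, 62.9 and 60.9 in Control (replicates 1 to 3 in each). For Hbb-bs it was 11202, 1113 and 10047 against 437, 127 and 109. In both genes Cav1-KO replicates 1 and 3 were about equally high, replicate 2 was far lower, and still the lowest Cav1-KO value was above the highest Control value. The groups did not overlap in 6 of the 7 members, all but Epb42. Of all genes tested, 13.5% were higher in Cav1-KO without overlap and 11.9% lower. A gene is named as called here where edgeR's quasi-likelihood test gave an adjusted p (Benjamini-Hochberg) under 0.05 and the log2 fold change exceeded 1 in size. By this rule 4 of the 7 were called higher, as were 0.349% of all genes tested. They are Hba-a1 with a log2 fold change of 5.28 (standard error 0.94, adjusted p = 0.0399), Hbb-bs with 5.03 (standard error 0.93, adjusted p = 0.0444), Hbb-bt with 6.08 (standard error 1.18, adjusted p = 0.0492) and Alas2 with 4.45 (standard error 0.75, adjusted p = 0.0343). Hba-a2, at 6.05 (standard error 1.29, adjusted p = 0.0623), and Slc4a1, at 5.44 (standard error 1.11, adjusted p = 0.0569), missed the threshold with changes of like size. The median over the 7 was 5.28, and that of all 17759 genes tested was -0.0021. Leaving out Cav1-KO replicate 1 or 3 or Control replicate 1 or 3 left 0 called members, leaving out Control replicate 2, the library with Xist, left 3, and leaving out Cav1-KO replicate 2 gave 6. DESeq2 called 6 members and limma 0 on either FPKM scale.

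Alas2 in these lungs was 40.1, 6.04 and 45.3 FPKM in hypoxic Cav1-KO males and 2.27, 0.837 and 0.829 in hypoxic Control males. Slc4a1 was 12.3, 0.441 and 13.4 against 0.239, 0.269 and 0.0940. The same Cav1-KO replicates 1 and 3 carried the high Slc4a1 values, and replicate 2 lay just above the Control libraries. Platelet transcripts stood high in the same 2 libraries. The platelet and megakaryocyte list of 12 genes, which includes Pf4 and Itga2b, summed to 80.2 to 397 CPM in hypoxic Cav1-KO males and 34.04 to 96.1 in hypoxic Control males. The median log2 fold change of its 11 tested genes was 1.92. Gp1bb was at 0 in 29 libraries and the other 11 platelet genes were above 0 in all. The part of platelets in the globin result was not tested.

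Hypoxic Cav1-RC males had low hemoglobin transcripts. Hbb-bs was 494, 479.6 and 252 FPKM and Hba-a1 337, 290.0 and 148 FPKM in the 3 libraries. All 3 lay below every hypoxic Cav1-KO male for both genes, as 27.3% of all genes tested did. Against Cav1-KO, 6 of the 7 members were called lower (6.59% of genes tested were). The log2 fold changes were -4.13 ± 0.77 for Hba-a1, -5.35 ± 1.07 for Hba-a2, -4.21 ± 0.75 for Hbb-bs and -5.09 ± 1.01 for Hbb-bt (± standard error), with adjusted p from 0.00247 to 0.00414. Alas2 was at -2.75 (standard error 0.62, adjusted p = 0.00737) and Slc4a1 at -3.35 (standard error 1.01, adjusted p = 0.0252). With 1 library left out, 5 to 7 members were called, Slc4a1 in 2 of 6 such fits (adjusted p up to 0.0818). All Cav1-KO libraries here are on the blot list and no Cav1-RC library is, so list and genotype cannot be told apart within these 2 groups. The neutrophil list summed to 296 to 756 CPM in Cav1-RC and 79.1 to 326.3 in Cav1-KO, with 2 of 10 genes called higher (8.16% of all genes were), and the platelet list to 74.3 to 103 and 80.2 to 397 CPM, with 6 of 11 called lower. Their part was not tested.

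Against hypoxic Control males the Cav1-RC libraries overlapped for all 4 globins, and none of the globins was called. Alas2, at 5.56, 5.36 and 2.89 FPKM in Cav1-RC, was higher in every library, as 25.9% of all genes tested were. Alas2 exceeded Control by 1.76 on the log2 scale and was called higher (standard error 0.43, adjusted p = 0.0138). Slc4a1, at 0.752, 1.65 and 0.199 FPKM, was called higher with 2.11 (standard error 0.71, adjusted p = 0.0456) although its lowest library overlapped the Controls. These 2 calls stand against 5.69% of genes called higher and 9.9% in either direction, and with 1 library left out 0 (without Cav1-RC replicate 2 or Control replicate 3), 1 (without Cav1-RC replicate 1) or up to 5 members (without Control replicate 1) were called. Here too the Controls are listed and Cav1-RC is not. With all 34 libraries fitted together and the list as a term, Alas2 went to -1.45 (adjusted p = 0.630, edgeR). In every such fit that term can be estimated only from the 3 female groups that hold 1 listed library each beside unlisted ones. In 1 of them, female Control normoxia, Alas2 ran from 0.409 to 20.7 FPKM, with the listed library lowest.

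**Figure D2:**
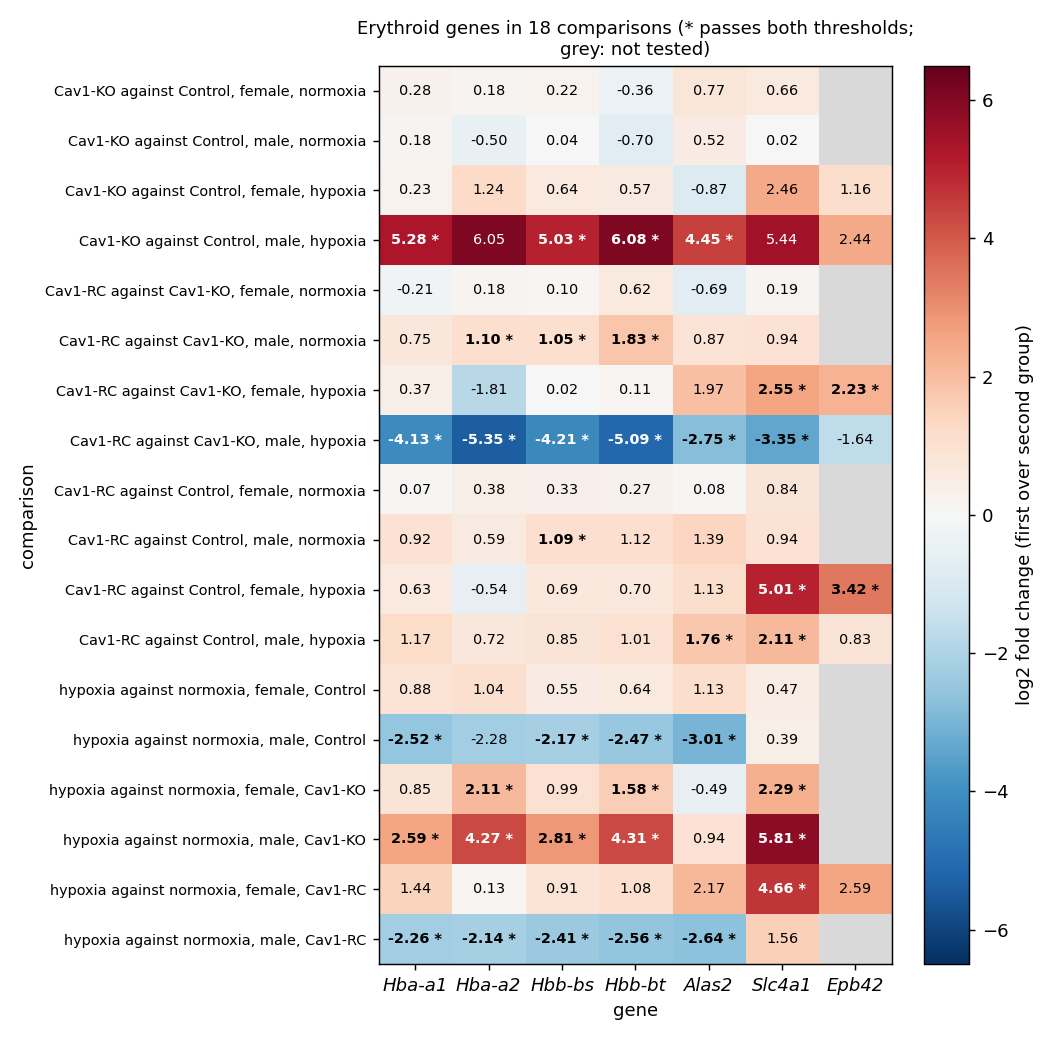
Log2 fold changes of the 7 members (columns) in the 18 comparisons within a sex (rows), with an asterisk where a gene passed both thresholds and grey where it was filtered out. In hypoxic males Cav1-KO against Control is high for all 7 members (2.44 to 6.08) and Cav1-RC against Cav1-KO is negative for all 7 (-5.35 to -1.64).

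Hypoxia of 6 weeks went with fewer hemoglobin transcripts in Control and Cav1-RC males and with more in Cav1-KO males. In Control males the globins and Alas2 were lower in hypoxia. Hba-a1 was 686, 546 and 728 FPKM in normoxia and 215, 62.9 and 60.9 in hypoxia, lower without overlap, as 21.2% of all genes tested were. The log2 fold change was -2.52 ± 0.49 for Hba-a1, -2.17 ± 0.50 for Hbb-bs, -2.47 ± 0.48 for Hbb-bt and -3.01 ± 0.49 for Alas2, with adjusted p from 0.0125 to 0.0293. These 4 of 6 tested members were called lower (3.93% of genes were), and Hba-a2 missed the threshold at -2.28 (standard error 0.66, adjusted p = 0.0504). Without hypoxia replicate 3, 0 members were called, and without normoxia replicate 3, 2 were. The neutrophil list summed to 190.9 to 261.4 CPM in hypoxia and 98.9 to 140.7 in normoxia. The platelet list summed to 34.04 to 96.1 and 31.0 to 43.4 CPM. Their part was not tested here. The hypoxic libraries are listed and the normoxic ones are not, and when all 34 libraries were fitted together 0 was called, without the list as a term (Alas2 at -2.98, adjusted p = 0.0604) and with it (Alas2 at 0.19, adjusted p = 0.948).

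In Cav1-RC males, none of them on the list, the same 4 globins and Alas2 were lower in hypoxia in every library. Hbb-bs was 1924, 2935 and 1693 FPKM in normoxia and 494, 479.6 and 252 in hypoxia. Alas2 was 27.5, 41.1 and 18.2 against 5.56, 5.36 and 2.89. In neither gene did the groups overlap, and 15.8% of all genes tested were lower in hypoxia in this way. The changes were -2.26 ± 0.31 for Hba-a1, -2.14 ± 0.31 for Hba-a2, -2.41 ± 0.29 for Hbb-bs, -2.56 ± 0.35 for Hbb-bt and -2.64 ± 0.32 for Alas2, with adjusted p from 0.00396 to 0.00764. These 5 of 6 tested members were called lower, against 0.856% of genes, and all 5 calls held when any 1 library was left out. With all 34 libraries in 1 fit 0 was called. Normoxia replicates 1 and 2 are the libraries with Xist and no Y gene counts, so 2 of the 3 normoxic libraries read as female by these genes while the 3 hypoxic ones matched their label, and for them sex and oxygen cannot be told apart. Without both of them 1 normoxic library remains, assumed to vary like the hypoxic ones. In that test 0 was called, and the log2 fold change of Hbb-bs was -2.04 (adjusted p = 0.0714). Of the 10 neutrophil genes, 5 were called higher in hypoxia (1.42% of all genes were), among them Ngp at 4.51 ± 0.53, adjusted p = 0.00396.

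In Cav1-KO males the globins were higher in hypoxia. Hba-a2 was 173, 144 and 192 FPKM in normoxia and 5144, 153 and 4577 in hypoxia. Hbb-bt was 110.1, 178 and 155 against 4935, 170.1 and 3768. Hypoxia replicate 2 lay inside the normoxic range for both. Slc4a1, at 0.141, 0.168 and 0.153 FPKM in normoxia, was the member that did not overlap, since all 3 hypoxic libraries were above it, as was so for 32% of all genes tested. The calls were 5 of 6 tested members higher, with 8.75% of genes called higher. The log2 fold changes were 2.59 ± 0.68 for Hba-a1, 4.27 ± 0.97 for Hba-a2, 2.81 ± 0.67 for Hbb-bs, 4.31 ± 0.94 for Hbb-bt and 5.81 ± 1.12 for Slc4a1, with adjusted p from 0.00237 to 0.0109. Alas2 was at 0.94 (standard error 0.57, adjusted p = 0.190) and was not called. With 1 library left out, 5 to 7 members were called. The count was 3 in the fit with the list as a term, 0 with limma on log2(FPKM + 1) and 1 on log2(FPKM + 0.1). The list and hypoxia cannot be told apart in this genotype. Of the 11 platelet genes tested, 10 were called higher in the same comparison, and their summed level was 38.7 to 42.2 CPM in normoxia.

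**Figure D3:**
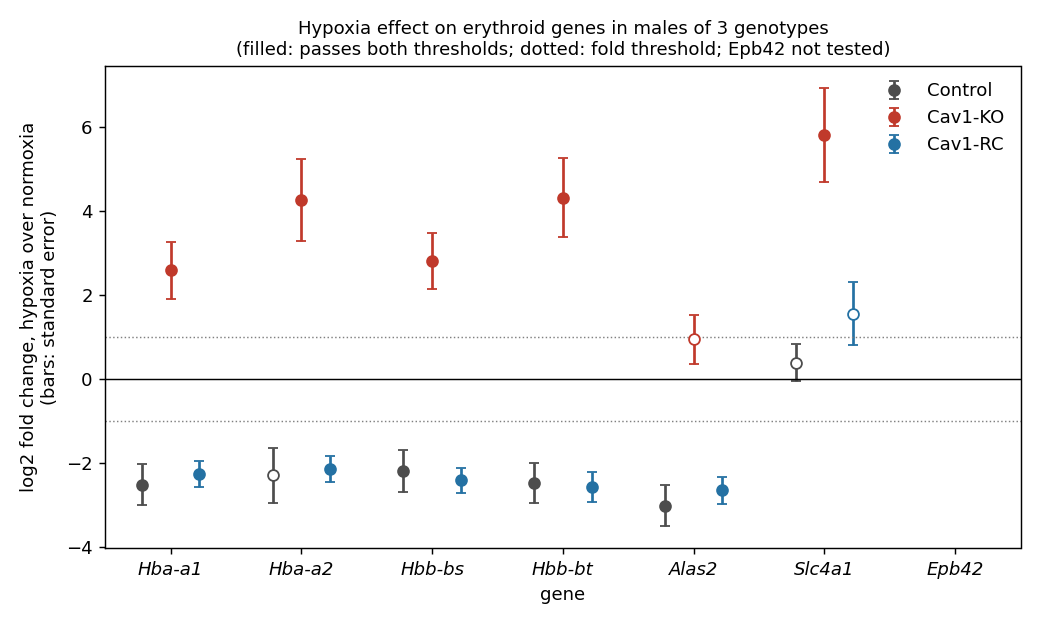
Log2 fold change of the members in hypoxia over normoxia for males of the 3 genotypes (Epb42 was not tested), with standard errors as bars and filled points where both thresholds were passed. The globins lie between -2.56 and -2.14 in Control and Cav1-RC males and between 2.59 and 4.31 in Cav1-KO males.

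The difference between genotypes in the hypoxia effect was itself tested, a comparison added after the data were seen. In males, the effect in Cav1-KO exceeded that in Control for 5 of 7 members (0.856% of genes were called higher), by 6.79 ± 1.21 for Hbb-bt (adjusted p = 0.0190) and by 3.93 ± 0.89 for Alas2 (adjusted p = 0.0349) on the log2 scale. With limma 0 was called. Both hypoxic groups are listed and both normoxic ones are not. Leaving out 1 of the 12 libraries gave 0 to 6 calls, with 0 calls without any 1 of the 3 normoxic Cav1-KO libraries, 1 call without hypoxic Cav1-KO replicate 1 or 3 or normoxic Control replicate 2, and 3 without replicate 3 of either Control group. The effect in Cav1-RC was below that in Cav1-KO for 5 of 7 members (5.14% were called lower), with differences of -6.92 ± 1.13 for Hbb-bt and -3.63 ± 0.78 for Alas2, and 5 to 7 were called with 1 library left out. Between Cav1-RC and Control males 0 of 7 was called by edgeR, DESeq2 or limma and 0 had an unadjusted p under 0.05 (3.59% of genes were called). The interval of that difference is wide, with standard errors of 0.62 to 1.06 for the globins, Alas2 and Slc4a1. In females none of the 3 differences was called by edgeR, with 0.0%, 0.14% and 0.0% of genes called for Cav1-KO against Control, Cav1-RC against Cav1-KO and Cav1-RC against Control, and 0, 1 and 1 members at an unadjusted p under 0.05. Of all genes tested, 4854 of 18527, 5734 of 18513 and 477 of 18354 had such a p. DESeq2 called 0, 1 and 1 members, and limma 0.

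In hypoxic females the globin levels overlapped between the genotypes. Hbb-bs was 1231, 2317 and 1366 FPKM in Control, 3022, 3449 and 1259.8 in Cav1-KO and 2287, 325 and 5263 in Cav1-RC. The Cav1-RC libraries held both the lowest and the highest of these values. Slc4a1 was 0.165, 0.230 and 0.0708 FPKM in Control, 1.24, 0.883 and 0.543 in Cav1-KO and 4.38, 3.87 and 7.37 in Cav1-RC. Its 3 groups did not overlap, in that order. Epb42 was 0.0319, 0.0370 and 0.0511 FPKM in Control, 0.0828, 0.0911 and 0.0899 in Cav1-KO and 0.406, 0.444 and 0.419 in Cav1-RC. It followed the same order without overlap. Among all genes tested, 16.9% were higher without overlap in Cav1-KO against Control, 22.4% in Cav1-RC against Cav1-KO and 7.32% in Cav1-RC against Control.

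Against Control females, Cav1-RC had log2 fold changes of 5.01 (standard error 0.46, adjusted p = 0.00678) for Slc4a1 and 3.42 (standard error 0.40, adjusted p = 0.0140) for Epb42. These 2 of 7 were called higher (0.572% of genes were), and leaving out Cav1-RC replicate 1 removed both calls. Leaving out Cav1-RC replicate 2 or 3 or Control replicate 2 or 3 left 1 call. Against Cav1-KO, the changes were 2.55 (standard error 0.35, adjusted p = 0.00458) and 2.23 (standard error 0.35, adjusted p = 0.00611), and both calls (5.58% of genes were called higher and 8.98% in either direction) held with any 1 library left out. This comparison is confounded with the list, and with the list as a term neither gene was called. Cav1-KO against Control gave 0 of 7 calls with edgeR (0.768% of genes were called), 2 with DESeq2 and 0 with limma, and edgeR made 1 call without Control replicate 1. At an unadjusted p under 0.05 in edgeR this comparison had 3 members and 5140 of the 17699 genes tested. Slc4a1 was at 2.46 (standard error 0.50, adjusted p = 0.0698) there. Beside these results the neutrophil list summed to 323.1 to 599 CPM in Cav1-RC, 70.5 to 598 in Cav1-KO and 84.1 to 124 in Control, with 9 of 10 genes called higher against Cav1-KO. The platelet list summed to 63.4 to 119.7 CPM in Cav1-RC, 72.0 to 166.9 in Cav1-KO and 22.6 to 45.9 in Control. The part of either list was not tested.

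Hypoxia was also compared with normoxia within the females of each genotype. In Cav1-RC females Slc4a1 rose by 4.66 (standard error 0.43, adjusted p = 0.0341) from 0.176 and 0.229 FPKM in normoxia, the single call among 7 members (0.0228% of genes were called higher and 0.0285% in either direction). It was lost on leaving out hypoxia replicate 1. It was also lost among unlisted libraries alone and without either normoxic library. These fits leave 1 normoxic library, assumed to vary like the hypoxic ones. In Cav1-KO females Hba-a2 (2.11 ± 0.35, adjusted p = 0.00431), Hbb-bt (1.58 ± 0.40, adjusted p = 0.0202) and Slc4a1 (2.29 ± 0.45, adjusted p = 0.00844) were called higher, 3 of 6 against 6.29% of genes. Hba-a2 was 212.3 and 283 FPKM in normoxia and 1452, 1157 and 624 in hypoxia, without overlap (32.8% of all genes tested were higher in this way), while its partner copy Hba-a1 was 949 and 736 against 1826, 2084 and 688 and overlapped. List and oxygen cannot be told apart here, and with 1 library left out 0 members (without normoxia replicate 1), 1 (without normoxia replicate 2) or up to 5 (without hypoxia replicate 3) were called. Platelet genes were called higher in 5 of 11. In Control females 0 of 6 was called by edgeR, DESeq2 or limma and none had an unadjusted p under 0.05 (0.0175% of genes were called).

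In normoxia few members were called between the genotypes. Cav1-KO against Control gave 0 of 6 calls in females (0.122% of genes were called) and in males (5.0%), by edgeR, DESeq2 or limma. At an unadjusted p under 0.05 in edgeR there were 0 members in females (1981 of 17269 genes) and 1 in males (5067 of 17439 genes). That gene was Hbb-bt, at 110.1, 178 and 155 FPKM in Cav1-KO males and 255, 215 and 252 in Control males. All its Cav1-KO values were below every Control library, as was so for 16.7% of all genes tested. Its log2 fold change of -0.70 (standard error 0.17, adjusted p = 0.0375) was short of the fold threshold. In females, Cav1-RC against Cav1-KO (0.1% of genes called) and against Control (0.137%) gave 0 of 6 calls by edgeR, DESeq2 or limma and 0 at an unadjusted p under 0.05. Without Cav1-RC replicate 2 that group has 1 library, so any call against Cav1-KO in that fit rests on the spread of Cav1-KO alone. In males, Cav1-RC had more Hbb-bt (454, 765 and 352 FPKM) than Cav1-KO in every library, as for 15.8% of all genes tested. The difference had a log2 fold change of 1.83 (standard error 0.26, adjusted p = 0.00131), and Hba-a2, at 1.10 ± 0.19, and Hbb-bs, at 1.05 ± 0.20, were also called higher (2.27% of genes were). The neutrophil list summed to 164.5 to 205.5 CPM in these Cav1-RC males and 48.0 to 103.1 in Cav1-KO, and its part was not tested. With all 34 libraries in 1 fit, with or without the list as a term, 0 was called. Leaving out Cav1-RC replicate 2 left 1 call. Without Cav1-RC replicates 1 and 2, the libraries with Xist, only Hbb-bt of these 3 was called, at 1.24, with the lone Cav1-RC library assumed to vary like the Cav1-KO ones. Against Control males, Hbb-bs was the single member called, at 1.09 (standard error 0.21, adjusted p = 0.0287) where 1.22% of genes were called higher and 2.45% in either direction, and it was not called without those 2 libraries. With 1 library left out 0 to 3 members were called there, 0 without Cav1-RC replicate 1 or 2 or Control replicate 2 or 3, 2 without Cav1-RC replicate 3 and 3 without Control replicate 1.

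Over both sexes, 5 of 7 members were higher in hypoxic Cav1-KO than in Control (1.94% of genes were), led by Slc4a1 at 3.93 (standard error 0.67, adjusted p = 0.00605). Without the 4 discordant libraries 1 was called in that comparison, and none of the members named next for Cav1-RC in hypoxia against normoxia or against Cav1-KO in normoxia. In hypoxic Cav1-RC against Cav1-KO, the 4 globins were lower (6.13% of genes) with log2 fold changes from -3.57 to -1.87, and here list and genotype cannot be told apart. This mean over the sexes came from the males. Of the 7 members, 6 were above 0 in females (median log2 fold change 0.37) and 0 in males (median -4.13). Against Control, Slc4a1 (3.56 ± 0.48, adjusted p = 0.00257) and Epb42 (2.14 ± 0.38, adjusted p = 0.00888) were higher in hypoxic Cav1-RC (2.68% of genes, and 3.73% in either direction). Hypoxia against normoxia gave 6 members higher in Cav1-KO (9.18% of genes), where list and oxygen cannot be told apart, Slc4a1 and Epb42 higher in Cav1-RC (0.835%) and 0 of 6 in Control by edgeR, DESeq2 or limma, with none at an unadjusted p under 0.05 (0.846% called). In normoxia Hbb-bt alone was called higher in Cav1-RC against Cav1-KO (2.96% of genes, and 4.28% in either direction), at 1.22 (standard error 0.23, adjusted p = 0.00906), and 0 of 6 in Cav1-KO (5.78%) or Cav1-RC (2.28%) against Control by edgeR, DESeq2 or limma, with none at an unadjusted p under 0.05. The female minus male difference was not called for any member in any of 9 comparisons by edgeR, where 0.0% of genes were. In hypoxia 6 of 7 members had an unadjusted p under 0.05 for Cav1-KO against Control, 7 of 7 for Cav1-RC against Cav1-KO and 2 of 7 for Cav1-RC against Control, and DESeq2 called 4, 0 and 1. Of all genes tested, 3077 of 18742, 756 of 18237 and 3309 of 17929 had such a p in edgeR, in the same order. Without female Control hypoxia replicate 1 edgeR called 5 members for Cav1-KO against Control. For hypoxia against normoxia the numbers at p under 0.05 were 1 of 7 in Cav1-KO, 7 of 7 in Cav1-RC and 5 of 6 in Control, with 0 called by DESeq2. Over all genes they were 1450 of 18487, 1059 of 18211 and 3271 of 18561. In normoxia 0, 3 and 0 of 6 members had such a p, and DESeq2 called none. The numbers over all genes were 650 of 18540, 1406 of 18085 and 583 of 18545. For Hbb-bs the sexes differed by -4.41 (standard error 1.07, adjusted p = 0.257) in the response to the knockout in hypoxia.

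Set against the globins, Slc4a1 was higher in hypoxia than in normoxia in Cav1-KO and in Cav1-RC. Slc4a1 had 0.118 to 0.598 counts per 1000 globin counts in the 16 normoxic libraries of all genotypes. In hypoxia it had 6.26, 37.0 and 3.99 in Cav1-RC females and 4.55, 11.03 and 2.57 in Cav1-RC males, all 6 above every normoxic library. Cav1-KO had 1.13, 0.766 and 1.23 in females and 2.92, 1.36 and 3.49 in males. These too were above every normoxic library. Control females had 0.446, 0.255 and 0.138, inside the normoxic range, and Control males 1.84, 7.46 and 2.74, above it. The hypoxic Control males had few globin counts, 2278 to 16303 per library.

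In 12 tests of such ratios, added after the data were seen and adjusted together, the log2 ratio of Slc4a1 to globin differed by 4.21 between hypoxia and normoxia in Cav1-RC (adjusted p = 0.0130, two-sided exact permutation test, 6 against 5 libraries). In Cav1-KO it differed by 1.80 (adjusted p = 0.0130, exact permutation test), at an unadjusted p of 0.00433 in each case, the smallest these numbers allow. In Control it differed by 1.16 (adjusted p = 0.303, exact permutation test). Among unlisted Control libraries (2 hypoxic and 5 normoxic) the sign was the opposite, at -1.06 (adjusted p = 0.286, exact permutation test). Between hypoxic Cav1-RC and Cav1-KO the difference was 2.16 (adjusted p = 0.0156, exact permutation test), where list and genotype cannot be told apart. In hypoxia Cav1-RC exceeded Control by 2.94 (adjusted p = 0.0445, exact permutation test), but the adjusted p was not under 0.05 in 14 of 34 repeats with 1 library left out (up to 0.0891) or among unlisted libraries (5.23, adjusted p = 0.190). In hypoxia Cav1-KO minus Control was 0.78 (adjusted p = 0.482, exact permutation test). Among unlisted libraries the Cav1-RC difference was 4.34 over 6 and 4 libraries, with an unadjusted exact permutation p of 0.00952, the smallest possible, and an adjusted p of 0.0571. In Cav1-KO the list and oxygen cannot be told apart.

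**Figure D4:**
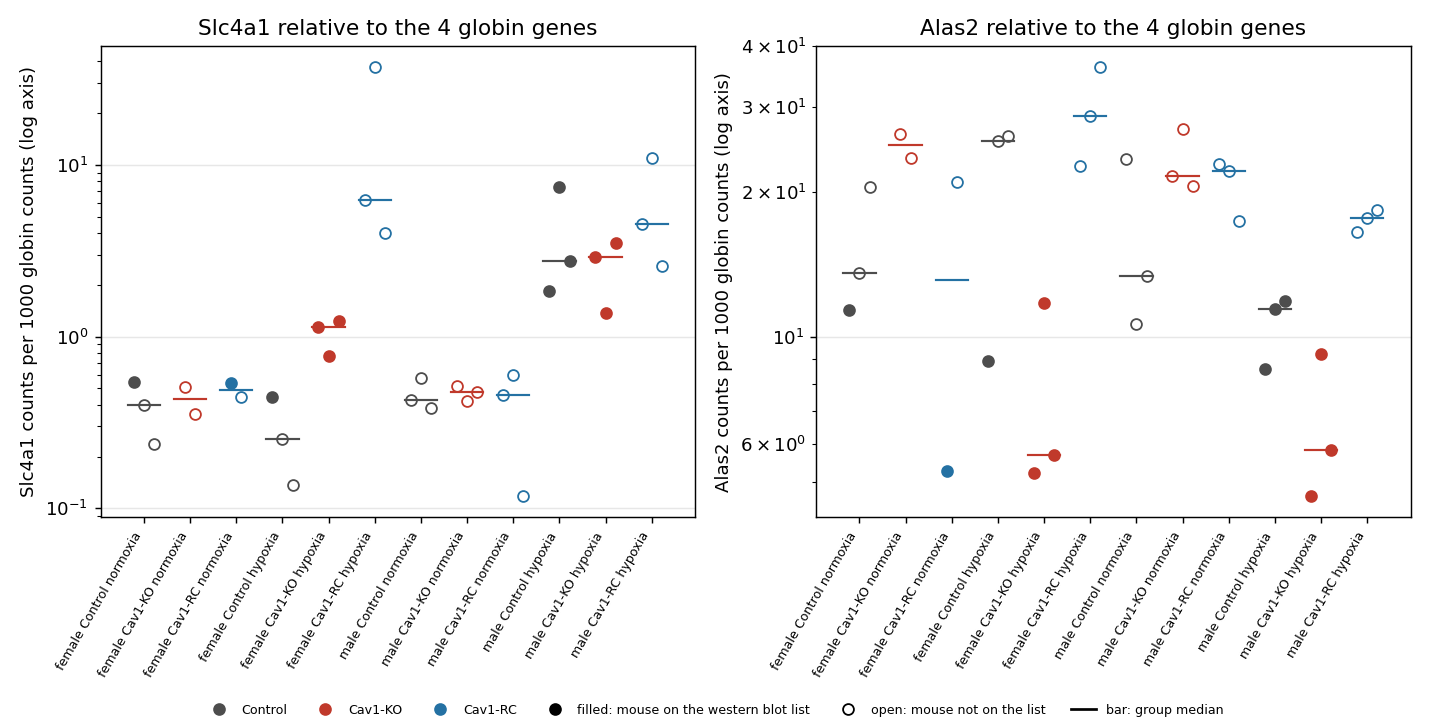
Slc4a1 (left) and Alas2 (right) counts per 1000 counts of the 4 globin genes, log axes, by group and library, with bars at group medians and filled points for mice on the blot list. Slc4a1 lies at 0.118 to 0.598 in normoxia and at 2.57 to 37.0 in hypoxic Cav1-RC, and Alas2 lies at 4.68 to 11.9 in listed and 10.6 to 36.2 in unlisted libraries.

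Alas2 behaved otherwise, and its ratio to the globins followed the blot list. It had 4.68 to 11.9 counts per 1000 globin counts in the 12 listed libraries and 10.6 to 36.2 in the 22 others. Only male Control normoxia replicate 2, at 10.6, lay among the listed values. In the 3 groups that hold both kinds the listed library was the lowest: 11.4 against 13.6 and 20.4 in female Control normoxia, 8.92 against 25.5 and 26.0 in female Control hypoxia, and 5.26 against 21.0 in female Cav1-RC normoxia. Within Cav1-KO the log2 ratio was lower in hypoxia, with a difference of -1.83 (adjusted p = 0.0130, exact permutation test), and hypoxic Cav1-RC exceeded hypoxic Cav1-KO by 1.75 (adjusted p = 0.0130, exact permutation test). In both, listed libraries were set against unlisted ones. Hypoxic Cav1-KO was below hypoxic Control by a log2 difference of -1.05 (adjusted p = 0.0445, exact permutation test), where 4 of the 6 Controls are listed too, and the adjusted p was not under 0.05 in 10 of 34 repeats with 1 library left out (up to 0.0816). In unlisted Cav1-RC libraries hypoxia and normoxia differed by 0.11 (adjusted p = 0.638, exact permutation test).

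The split of reads between the near-identical copies also varied. Hba-a2 took 15.6% to 42.7% of the α chain counts in the 12 listed libraries (mean 31.1% ± 8.47, SD) and 10.7% to 26.5% in the 22 others (mean 19.0% ± 4.14). In the 3 mixed groups the listed library had the highest share: 28.8% against 23.9% and 16.7% in female Control normoxia, 32.0% against 21.1% and 19.2% in female Control hypoxia, and 33.1% against 18.8% in female Cav1-RC normoxia. No genotype or oxygen difference in this share passed the permutation test (adjusted p of 0.300 or more). Whether the copies were truly transcribed in these proportions was not tested, and most of their coding sequence is shared. Wilson intervals (95%, counting error only) were widest in female Control normoxia replicate 1, the library with the fewest globin counts, from 25.5% to 32.4% for Hba-a2 and from 16.0% to 20.3% for Hbb-bt.

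For the β pair, Hbb-bt took 11.05 and 14.6% in normoxic Cav1-KO females and 10.7, 11.1 and 12.2% in normoxic Cav1-KO males. The 11 other normoxic libraries lay between 16.0% and 19.3%, so these 5 were below all of them. The Wilson intervals of the 5 ran from 10.2% at the lowest to 15.2% at the highest. Hypoxic Cav1-KO had 19.9, 16.6 and 18.2% in females and 28.7, 12.3 and 25.6% in males. Over all 34 libraries the genotype differences were not significant (Cav1-KO 16.5%, Control 17.4%, adjusted p = 0.691, permutation test). In the unlisted libraries alone, a choice made after the data were seen, Cav1-KO had 11.9% (n = 5, all normoxic) against 18.3% in Control (n = 7, adjusted p = 0.0152, exact permutation test) and 17.4% in Cav1-RC (n = 10, adjusted p = 0.00799, exact permutation test). Of these Control libraries 2 were hypoxic, and of the Cav1-RC libraries 6, so the sets also differed in oxygen. The β pair as a share of all globin counts was 60.5% in Cav1-RC and 56.7% in Cav1-KO over all libraries (adjusted p = 0.0226, permutation test, n = 11 each), the single one of 12 share tests that passed. Without the libraries of discordant sex genes its adjusted p was 0.123.

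**Figure D5:**
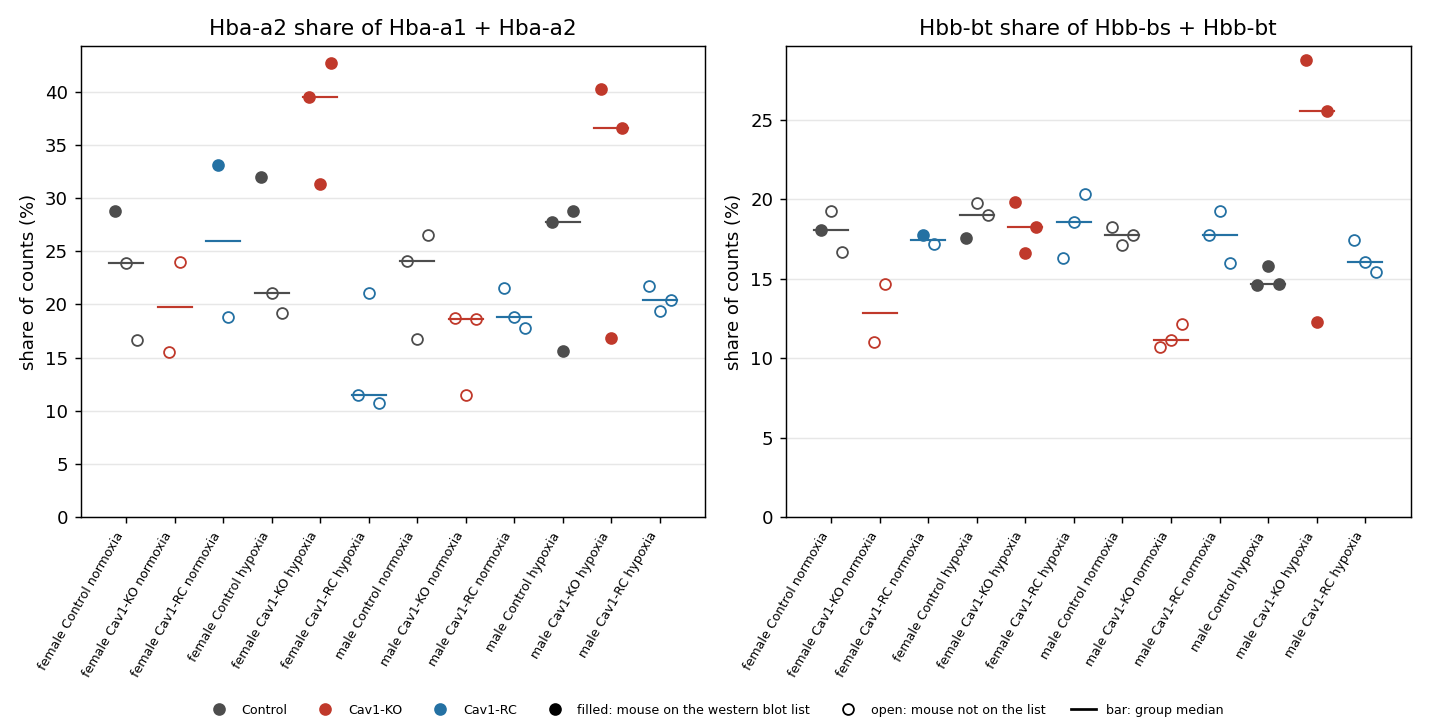
Share of counts (%) taken by Hba-a2 of the α pair (left) and by Hbb-bt of the β pair (right) in each library by group, with bars at group medians and filled points for mice on the blot list. Hba-a2 shares are 15.6% to 42.7% in listed and 10.7% to 26.5% in unlisted libraries, and Hbb-bt shares are 10.7% to 14.6% in normoxic Cav1-KO.

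Other genes of the red cell lineage were followed with lists. In hypoxic Cav1-KO males against normoxic ones, 6 of 15 tested genes of reticulocyte maturation and red cell enzymes were called higher, among them Prdx2, a peroxide scavenger of red cells (1.09 ± 0.22, adjusted p = 0.00303). Of 13 membrane genes, 3 were higher and 2 lower, with Tmod1, a capper of actin filaments, at -2.79 ± 0.17, adjusted p = 2.04e-05. Of 11 genes of heme synthesis and mitochondrial iron, 2 were higher, with ferrochelatase, Fech, which inserts iron into heme, at 1.05 ± 0.36, adjusted p = 0.0336. These counts stand beside 8.75% of all genes called higher in the same comparison. The median log2 fold changes of these 3 lists were 0.83, 0.24 and 0.44, and that of all genes tested was 0.012. Gata1, the erythroid and megakaryocyte transcription factor, was at 3.65 ± 0.64, adjusted p = 0.00145, 1 of 2 called higher among 10 tested factors and receptors. In hypoxic Cav1-KO against Control males, the list medians were 0.61, 0.47 and 0.16 in the same order. Hbq1a, a theta globin and a near copy of Hbq1b, was called at 7.37 ± 0.96, adjusted p = 0.0301 (0.349% of all genes were called higher). It lay near the floor, at 0 in 11 of the 34 libraries and at most 1.13 CPM, so the size of this change is poorly determined.

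In hypoxic Cav1-RC males against Cav1-KO, 5 of 16 reticulocyte genes, 3 of 11 heme genes and 3 of 14 membrane genes were lower (6.59% of all genes were), with Fech at -1.32 ± 0.37, adjusted p = 0.0179. Tmod1 and the water channel Aqp1, which endothelial cells also express, were the 2 membrane genes called higher. In hypoxic Cav1-RC females against Cav1-KO, 7 of 16 membrane genes were higher (5.58% of all genes were), among them the spectrin gene Sptb at 1.56 ± 0.27, adjusted p = 0.00823 and Rhd at 2.90 ± 0.54, adjusted p = 0.0103, beside Slc4a1 and Epb42. The median membrane gene changed by 0.93 against Cav1-KO and by 0.21 against Control. Among the 12 erythroid transcription factors and receptors the levels ran widely, from a median of 0.130 CPM for Gfi1b to 193 CPM for Ldb1. Of these 12, Klf1 had 0.064 to 0.927 CPM, and Gata1 was at 0 in 1 library and reached 5.84 CPM. Of the 7 embryonic and theta globins, Hbb-bh0 and Hbb-bh2 were at 0 in all 34 libraries. The list of hemoglobin clearance and the erythropoietin axis had 2 of 10 genes higher in hypoxic against normoxic Cav1-KO males (8.75% of all genes were), both scavenger genes, haptoglobin (Hp) and hemopexin (Hpx), the latter at 2.23 ± 0.26, adjusted p = 0.000195. Of the 8 arterial endothelium genes, Sox17 and Hey1 were called lower in hypoxic Cav1-RC males against Cav1-KO, and the list median there was -0.36.

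Across the 34 libraries the globins correlated with each other at a Pearson r of 0.935 to 0.991 (log2 CPM) and with Alas2 at 0.776 to 0.932. Slc4a1 correlated with the globins at 0.534 to 0.598 and with Epb42 at 0.887. After group means were taken out, Slc4a1 correlated with the globins at 0.704 to 0.802 and with Epb42 at 0.678, and Epb42 with the globins at 0.512 to 0.723. These r values describe libraries that share groups, depth and list membership. Among the 10 genes outside the members whose pattern was closest to the members' mean were Bpgm (r = 0.883), Hbq1b (0.835), Fam220a (0.819), F930017D23Rik (0.811), Fech (0.808), Apol11b (0.788), Ube2l6 (0.744) and Tspo2 (0.736), out of 19870 genes. The median r was 0.476 over the 19 reticulocyte genes, 0.499 over 11 platelet genes, 0.362 over 18 membrane genes, 0.136 over 10 neutrophil genes, 0.0908 over 12 heme genes, 0.0635 over 11 transcription factors and receptors, 0.128 over 11 clearance genes, -0.03 over 8 arterial genes and -0.09 over 8 lung identity genes.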

How the data were processed

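Whole-lung total RNA was poly-A selected and made into dUTP directional libraries. The authors aligned the reads to mm10 with HISAT2 2.0.5 and counted them per gene with featureCounts 1.5.0-p3, and they deposited the counts as whole reads and FPKM values (counts per length and depth). Counts were used for all tests and FPKM for levels. CPM were computed here from the counts. Groups came from the labels, and 1 of the 35 libraries, whose label calls its identity uncertain (possibly a normoxic Cav1-KO female), was given no group and entered no comparison. The members and gene lists were chosen with earlier results of these data known.

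Counts were fitted over the groups compared with edgeR 4.0.16 (R 4.3.3, TMM scaling, filterByExpr, quasi-likelihood test), in 18 comparisons within a sex, 9 over both sexes, 9 of female minus male and 6 of the hypoxia effect between genotypes, with Benjamini-Hochberg adjustment over all genes tested. A call needed an absolute log2 fold change above 1 and an adjusted p under 0.05. Alternatives were DESeq2 1.42.0, limma 3.58.1 on log2(FPKM + 1) and log2(FPKM + 0.1), fits over all 34 libraries with and without a term for the blot list, no filter, summed copies, globins left out of the scaling, a replicate block, and each library left out. The fitting steps were tested on simulated data. Ratios and shares were compared by two-sided permutation tests, exact for fewer than 10 libraries in a group and for all ratios, and otherwise with 100000 resamples. Intervals and floors cover counting error only.

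Cyb5r3 was added to 7 arterial genes. Named besides the members were Cav1, up to 3 called genes per list and direction with the smallest adjusted p, and the 10 genes most correlated with the members' mean (log2 CPM with a prior count of 2). Some genes that this rule names are not reported here. Replicates that share a number correlated above 0.1 in 11 of 49 pairs (r from -0.17 to 0.56), so numbers were not taken as pairs. Libraries of a group are separate mice and no pair of them agreed within sampling noise. Promoters are from RefSeq tables of GRCm38.p6 (6 of 8 members matched) and coding sequences from GENCODE M21.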

Additional observations from a re-analysis of the deposited data

Results flagged for a closer look

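In males, the hypoxia effect differed between genotypes in 10 tests of the difference itself, which were chosen after the data were seen and fitted with edgeR. The effect in Cav1-KO exceeded that in Control by 5.11 on the log2 scale for Hba-a1, 6.56 for Hba-a2, 4.99 for Hbb-bs, 6.79 for Hbb-bt and 3.93 for Alas2 (adjusted p from 0.0190 to 0.0349). The effect in Cav1-RC was below that in Cav1-KO, with differences of -4.89 for Hba-a1, -6.46 for Hba-a2, -5.27 for Hbb-bs, -6.92 for Hbb-bt and -3.63 for Alas2 (adjusted p from 0.000627 to 0.00359). These tests share the Cav1-KO libraries, of which hypoxia replicates 1 and 3 held most of the globin counts. In the second set of tests the list and the genotype cannot be told apart within hypoxia.

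The library of uncertain identity, labelled as possibly a normoxic Cav1-KO female and put in no group, was above the highest Control library for all 7 members. It had 9651 FPKM of Hba-a1, 6785 of Hba-a2, 16262 of Hbb-bs, 5363 of Hbb-bt, 75.9 of Alas2, 11.995 of Slc4a1 and 0.380 of Epb42. These are 4.53, 9.80, 7.02, 8.61, 1.62, 44.6 and 3.11 times the highest Control value, respectively. For the 4 globins they were also above every labelled library, and the 4 genes together took 2.74% of its counts. The 2 libraries labelled as normoxic Cav1-KO females had 949 and 736 FPKM of Hba-a1. The mouse number in its label is on the blot list, as a normoxic Cav1-KO female, and the numbers of those 2 are not. Its 6.37 Alas2 counts per 1000 globin counts and its Hba-a2 share of 36.6% lie within the ranges of the listed libraries and outside those of the unlisted ones. No comparison used this library. Single outlying libraries were not tested within groups, which held 2 or 3 libraries.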

How the results depend on the processing

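The count of called members stayed within 1.5 times in 448 of 549 recomputed counts, and direction and call held in 3283 of 3574 member fold changes. Smaller moves of a count, such as from 4 to 6, are not listed. Called members over 27 comparisons summed to 58 in the main analysis, 68 with DESeq2, 38 with the list as a term and 32 with limma on log2(FPKM + 1), and they ran from 7 (that limma fit with no filter) to 78 (edgeR with no filter on low counts). Hx/Nx stands for hypoxia against normoxia, and the cause of each change was not tested. DESeq2 size factors and leaving the globins out of the scaling changed no count by more than 1.5 times. With all 34 libraries in 1 fit, called members went from 0 to 1 for Cav1-KO/Control (females, hypoxia), Cav1-RC/Control (both sexes, normoxia), Hx/Nx (both sexes, Control), from 1 to 0 for Cav1-RC/Cav1-KO (both sexes, normoxia), Cav1-RC/Control (males, normoxia), from 2 to 0 for Cav1-RC/Control (males, hypoxia), from 3 to 0 for Cav1-RC/Cav1-KO (males, normoxia), Hx/Nx (females, Cav1-KO), from 4 to 0 for Hx/Nx (males, Control), from 4 to 7 for Cav1-KO/Control (males, hypoxia), from 5 to 0 for Hx/Nx (males, Cav1-RC), from 5 to 3 for the male hypoxia effect of Cav1-RC minus Cav1-KO. With the blot list as a further term, called members went from 0 to 1 for Cav1-RC/Control (both sexes, normoxia), Hx/Nx (both sexes, Control), from 1 to 0 for Cav1-RC/Cav1-KO (both sexes, normoxia), Cav1-RC/Control (males, normoxia), Hx/Nx (females, Cav1-RC), from 2 to 0 for Cav1-RC/Cav1-KO (females, hypoxia), Cav1-RC/Control (males, hypoxia), from 2 to 1 for Cav1-RC/Control (both sexes, hypoxia), from 3 to 0 for Cav1-RC/Cav1-KO (males, normoxia), Hx/Nx (females, Cav1-KO), from 4 to 0 for Hx/Nx (males, Control), from 4 to 7 for Cav1-KO/Control (males, hypoxia), from 5 to 0 for Hx/Nx (males, Cav1-RC), from 5 to 3 for Hx/Nx (males, Cav1-KO), from 6 to 3 for Hx/Nx (both sexes, Cav1-KO). With the Wald test of DESeq2, called members went from 0 to 1 for Cav1-RC/Control (sex difference, hypoxia), the female hypoxia effect of Cav1-RC minus Cav1-KO, the female hypoxia effect of Cav1-RC minus Control, from 0 to 2 for Cav1-KO/Control (females, hypoxia), from 0 to 4 for Cav1-KO/Control (sex difference, hypoxia), from 1 to 2 for Cav1-RC/Control (males, normoxia), Hx/Nx (females, Cav1-RC). With limma on log2(FPKM + 0.1), called members went from 1 to 0 for Cav1-RC/Control (males, normoxia), Hx/Nx (females, Cav1-RC), from 2 to 1 for Cav1-RC/Control (females, hypoxia), Cav1-RC/Control (males, hypoxia), Hx/Nx (both sexes, Cav1-RC), from 4 to 0 for Cav1-KO/Control (males, hypoxia), from 4 to 2 for Cav1-RC/Cav1-KO (both sexes, hypoxia), from 5 to 0 for the male hypoxia effect of Cav1-KO minus Control, from 5 to 1 for Hx/Nx (males, Cav1-KO). With limma on log2(FPKM + 1), called members went from 1 to 0 for Cav1-RC/Control (males, normoxia), Hx/Nx (females, Cav1-RC), from 2 to 1 for Cav1-RC/Cav1-KO (females, hypoxia), Cav1-RC/Control (both sexes, hypoxia), Cav1-RC/Control (females, hypoxia), Cav1-RC/Control (males, hypoxia), Hx/Nx (both sexes, Cav1-RC), from 3 to 1 for Hx/Nx (females, Cav1-KO), from 4 to 0 for Cav1-KO/Control (males, hypoxia), from 4 to 2 for Cav1-RC/Cav1-KO (both sexes, hypoxia), from 5 to 0 for Hx/Nx (males, Cav1-KO), the male hypoxia effect of Cav1-KO minus Control. With limma on log2(FPKM + 1) and no filter, called members went from 1 to 0 for Cav1-RC/Cav1-KO (both sexes, normoxia), Cav1-RC/Control (males, normoxia), Hx/Nx (females, Cav1-RC), from 2 to 0 for Hx/Nx (both sexes, Cav1-RC), from 2 to 1 for Cav1-RC/Cav1-KO (females, hypoxia), Cav1-RC/Control (both sexes, hypoxia), Cav1-RC/Control (females, hypoxia), Cav1-RC/Control (males, hypoxia), from 3 to 0 for Cav1-RC/Cav1-KO (males, normoxia), from 3 to 1 for Hx/Nx (females, Cav1-KO), from 4 to 0 for Cav1-KO/Control (males, hypoxia), Hx/Nx (males, Control), from 4 to 1 for Cav1-RC/Cav1-KO (both sexes, hypoxia), from 5 to 0 for Cav1-KO/Control (both sexes, hypoxia), Hx/Nx (males, Cav1-KO), Hx/Nx (males, Cav1-RC), the male hypoxia effect of Cav1-KO minus Control, from 6 to 0 for Cav1-RC/Cav1-KO (males, hypoxia), from 6 to 1 for Hx/Nx (both sexes, Cav1-KO).

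With near-identical copies summed, called members went from 1 to 0 for Cav1-RC/Cav1-KO (both sexes, normoxia), from 1 to 2 for Cav1-RC/Control (males, normoxia). With no filter on low counts, called members went from 0 to 1 for Cav1-KO/Control (females, hypoxia), from 0 to 2 for Cav1-RC/Cav1-KO (sex difference, normoxia), from 0 to 3 for the female hypoxia effect of Cav1-RC minus Cav1-KO, from 0 to 5 for Cav1-KO/Control (sex difference, hypoxia), from 0 to 6 for Hx/Nx (sex difference, Cav1-KO), Hx/Nx (sex difference, Cav1-RC), from 0 to 7 for Cav1-RC/Cav1-KO (sex difference, hypoxia), from 1 to 3 for Cav1-RC/Control (males, normoxia), from 1 to 4 for Hx/Nx (females, Cav1-RC), from 2 to 4 for Cav1-RC/Cav1-KO (females, hypoxia), Cav1-RC/Control (males, hypoxia), from 4 to 7 for Cav1-KO/Control (males, hypoxia). With no threshold on the fold change, called members went from 0 to 1 for Cav1-KO/Control (males, normoxia), from 1 to 2 for Cav1-RC/Cav1-KO (both sexes, normoxia). In unlisted libraries alone, called members went from 0 to 1 for Hx/Nx (females, Control), from 1 to 0 for Hx/Nx (females, Cav1-RC). With the replicate number as a block, called members went from 1 to 2 for Cav1-RC/Control (males, normoxia), from 2 to 5 for Cav1-RC/Control (males, hypoxia), from 3 to 5 for Hx/Nx (females, Cav1-KO). Without the 4 libraries of discordant sex genes, called members went from 1 to 0 for Cav1-RC/Cav1-KO (both sexes, normoxia), Cav1-RC/Control (males, normoxia), from 2 to 0 for Hx/Nx (both sexes, Cav1-RC), from 3 to 1 for Cav1-RC/Cav1-KO (males, normoxia), from 5 to 0 for Hx/Nx (males, Cav1-RC), from 5 to 1 for Cav1-KO/Control (both sexes, hypoxia). The numbers do not pair the libraries, so the blocked counts are values only. With all 34 libraries fitted and the list as a term, Alas2 changed sign, to -1.45 (adjusted p = 0.630, edgeR) in hypoxic Cav1-RC against Control males and to 0.19 (adjusted p = 0.948) in hypoxic against normoxic Control males. The list term in these fits rests on the 3 female groups that hold both listed and unlisted libraries, with 1 listed library each. With each library left out in turn, called members ranged from 0 to 1 for Cav1-KO/Control (females, hypoxia), Cav1-RC/Cav1-KO (both sexes, normoxia), Cav1-RC/Cav1-KO (females, normoxia), Cav1-RC/Control (sex difference, hypoxia), Hx/Nx (sex difference, Cav1-RC), Hx/Nx (sex difference, Control), Hx/Nx (females, Cav1-RC), the female hypoxia effect of Cav1-RC minus Cav1-KO, from 0 to 2 for Cav1-RC/Cav1-KO (sex difference, hypoxia), Cav1-RC/Control (females, hypoxia), from 0 to 3 for Cav1-RC/Control (males, normoxia), Hx/Nx (sex difference, Cav1-KO), from 0 to 4 for Cav1-RC/Cav1-KO (sex difference, normoxia), from 0 to 5 for Cav1-KO/Control (sex difference, hypoxia), Cav1-RC/Control (males, hypoxia), Hx/Nx (females, Cav1-KO), Hx/Nx (males, Control), from 0 to 6 for Cav1-KO/Control (males, hypoxia), the male hypoxia effect of Cav1-KO minus Control, from 1 to 3 for Hx/Nx (both sexes, Cav1-RC), from 1 to 4 for Cav1-RC/Cav1-KO (males, normoxia), from 2 to 3 for Cav1-RC/Cav1-KO (females, hypoxia), from 3 to 4 for Cav1-RC/Cav1-KO (both sexes, hypoxia), from 5 to 6 for Hx/Nx (both sexes, Cav1-KO), from 5 to 7 for Cav1-KO/Control (both sexes, hypoxia), Cav1-RC/Cav1-KO (males, hypoxia), Hx/Nx (males, Cav1-KO), the male hypoxia effect of Cav1-RC minus Cav1-KO. Several sex differences took their highest count without 1 library, namely 4 for Cav1-RC/Cav1-KO in normoxia without female Cav1-RC normoxia replicate 2, 3 for Hx/Nx in Cav1-KO and 2 for Cav1-RC/Cav1-KO in hypoxia without male Cav1-KO hypoxia replicate 2. In unlisted libraries the Hbb-bt share differed by -6.31 percentage points between Cav1-KO and Control and by 5.48 between Cav1-RC and Cav1-KO, both past the threshold there, while the log2 Slc4a1 ratio missed it for Hx/Nx in Cav1-RC (4.34) and for Cav1-RC/Control in hypoxia (5.23). Without the discordant libraries the β share of Cav1-RC exceeded that of Cav1-KO by 3.44, past no threshold. Leaving out 1 library moved the log2 Slc4a1 ratio of hypoxic Cav1-RC over Control between 2.39 and 3.54 and the Alas2 ratio of hypoxic Cav1-KO over Control between -1.22 and -0.87, with the call lost for some. Epb42 had 0 to 87 counts per library, so small differences in it were not detectable at this depth.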
